A study of Camellia sinensis with 12 samples.

Results

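The miR319 family of Xinyang Maojian (XYMJ) green tea was represented by 9 of the 650 conserved miRNA IDs listed for every library. These are all the IDs whose names begin with cas-MIR319-, numbered 1 to 9, and they were followed singly and as a sum. The libraries came from 4 tissues of young shoots of Camellia sinensis var. 'XYMJ', with 3 libraries per tissue and no treatment. They were taken from the bud (sBud), the younger leaf next to it (sL1), the more mature second leaf (sL2) and the stem (sS1). The way in which plants were shared out among the replicates is not given in the sources used here.

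In plants, miR319 guides the cleavage of transcripts of the CINCINNATA type of TCP transcription factors. In Arabidopsis these factors slow cell proliferation and promote differentiation in growing leaves, and an excess of miR319 gives large, crinkled leaves. miR319 and miR159 share an ancestor and much of their mature sequence, but miR159 acts mainly on MYB transcripts. The study chose 2 members, csn-miR319-2 and csn-miR319-9, for qRT-PCR, and these are read here as cas-MIR319-2 and cas-MIR319-9 by their numbers. From qRT-PCR the study describes both as specific to sL1 and sL2. It lists both as up in sBud/sS1 and down in sBud/sL1 and sBud/sL2, without stating which tissue is on top. In the counts below, the sL1 libraries held none of cas-MIR319-2 and 1 count of cas-MIR319-9. The reason for this difference from the study was not tested. The counts come without sequences, so it is not known here by which bases the 9 members differ. TCP transcripts are not part of these counts and were not analysed here.

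Library totals ranged from 387015 to 746562 counts. The 5 most abundant IDs of a library held 79.8% to 85.1% of its counts, so a minor family such as miR319 is measured in the small remainder. Values in CPM are counts scaled to the library total and the TMM factor of edgeR. Where a library had no count of a member, up to 3 counts remain possible. This limit averages 6.05 CPM for sBud, 7.22 for sL1, 4.44 for sL2 and 5.38 for sS1. Tissue names follow the titles with which the libraries were deposited. The deposited tissue field reads Leaf for all 12 libraries, and miRNA counts offer no fixed markers with which to check the labels. The study reports few differentially expressed miRNAs between its first and second leaves. By its thresholds, 90 IDs differed here between sL2 and sL1, and 16 between sS1 and sL1. Whether the titles of sL2 and sS1 were exchanged was not tested, so every tissue statement below rests on the titles. In these bulk samples, fewer cells that make a miRNA and less of it per cell cannot be told apart.

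By the titles, the miR319 family was most abundant in the second leaf and scarcest in the first leaf, with the bud between them. The 9 members together had 197, 152 and 237 counts in the sBud libraries. They had 8, 29 and 18 counts in those of sL1, 873, 795 and 1025 in those of sL2, and 57, 56 and 24 in those of sS1. In normalized values the sBud libraries had 363, 379 and 407 CPM, those of sL1 19.2, 57.3 and 51.1, those of sL2 1317, 1200.4 and 1455, and those of sS1 89.1, 97.3 and 49.8. All sL2 libraries lay above all others, and all sBud libraries lay above those of sL1 and sS1. The sL1 and sS1 libraries overlapped, because sS1 replicate 3 was below 2 of the sL1 libraries.

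**Figure D1:**
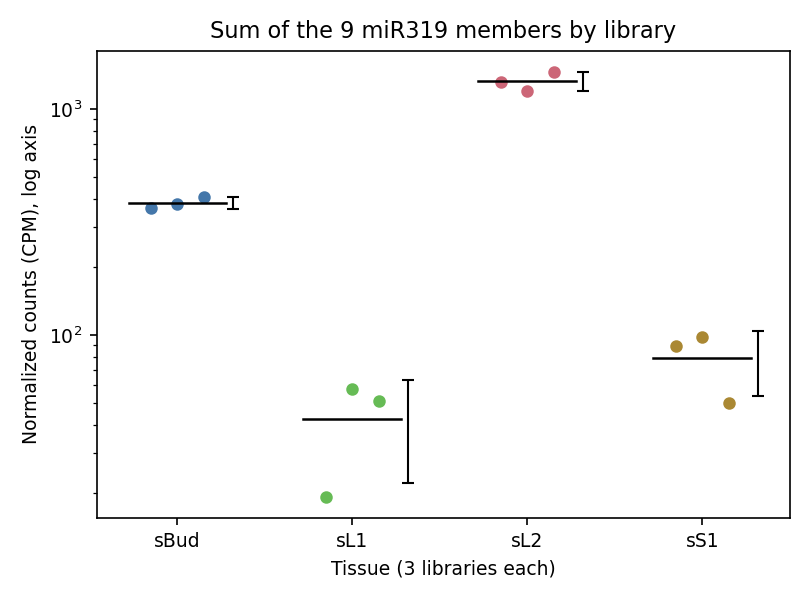
The vertical axis gives the sum of the 9 miR319 members in CPM on a log axis, and the horizontal axis the tissue. Points are libraries, horizontal lines tissue means and bars the SD (n = 3). The sL2 libraries lie between 1200.4 and 1455 CPM, sBud between 363 and 407, sS1 between 49.8 and 97.3 and sL1 between 19.2 and 57.3.

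The family held only a small part of each library. It made up 0.0395 ± 0.00331% of all counts of an sBud library (SD, n = 3), 0.00403 ± 0.00173% of an sL1 library, 0.146 ± 0.0114% of an sL2 library and 0.00721 ± 0.00258% of an sS1 library. In the smallest sample, sL1 replicate 1, the 8 counts gave a share of 0.00207% with an exact (Clopper-Pearson) 95% interval of 0.000892% to 0.00407%. In sL2 replicate 1, the share was 0.136% with an interval of 0.127% to 0.146%. Such intervals cover counting error only. The share differed between the 4 tissues beyond the spread of the replicates (p = 0.000195, two-sided exact permutation test on the F statistic, all 369600 arrangements). The smallest p that this test can give is 6.49e-05.

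Of the 6 comparisons, that of both leaves gave the largest difference. The sum was higher in sL2 than in sL1 by 5.06 on the log2 scale (standard error 0.43, adjusted p of edgeR = 1.94e-07). In this fit of sums per family, 60 families and unnamed IDs were tested, and miR319 had the highest log2 fold change of them all in sL2/sL1. Of the 60, 6 were DEMs higher in sL2 than in sL1 (10%). A DEM, a differentially expressed miRNA, is here a feature that changed more than 2-fold in either direction with p below 0.05 before adjustment, as in the methods of the study. The Benjamini-Hochberg adjusted p over all features tested is given beside it.

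Against the bud, the family moved in opposite directions in the 2 leaves. It was higher in sL2 than in sBud, with a log2 fold change of 1.91 (standard error 0.36, adjusted p of edgeR = 0.000645), where 18.3% of the 60 features were DEMs in that direction. It was lower in sL1 than in sBud, with a log2 fold change of -3.15 (standard error 0.40, adjusted p of edgeR = 7.69e-05), where 6.67% were DEMs in that direction. The sL2/sL1 comparison above is the test of the difference between the leaves. If the titles are right, the sum was thus not ordered by leaf age, since sL1, the younger leaf, lay below both the bud and sL2.

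The libraries titled as stem had little miR319. The sum was lower in sS1 than in sBud, with a log2 fold change of -2.27 (standard error 0.38, adjusted p of edgeR = 0.000258), where 16.7% of the 60 features were lower DEMs. It was also lower in sS1 than in sL2, with a log2 fold change of -4.17 (standard error 0.40, adjusted p of edgeR = 1.08e-06), where 6.67% were lower DEMs. Between sS1 and sL1 the log2 fold change was 0.89 (standard error 0.40, unadjusted p of edgeR = 0.0423, adjusted p = 0.211), below the threshold of a DEM, while 3.33% of the 60 features were higher DEMs. It passed that threshold at 1.28 without sL1 replicate 2 and at 1.15 without sS1 replicate 3. In order of level the tissues were therefore sL2, sBud, sS1 and sL1, where the order of the last 2 did not hold after adjustment over the 60 features and their libraries overlapped.

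**Figure D2:**
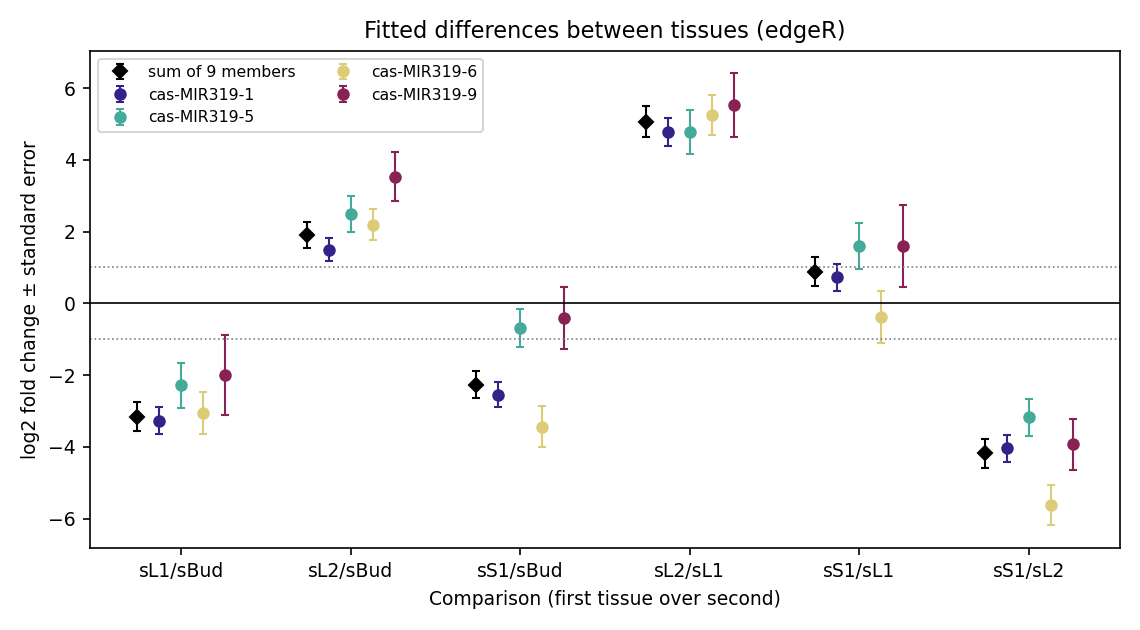
The vertical axis gives the log2 fold change with its standard error from edgeR, and the horizontal axis the 6 comparisons, each the tissue named first over the other. Diamonds stand for the sum of the 9 members and circles for the 4 members with at least 10 counts outside sL2, and dotted lines mark a log2 fold change of 1 and -1. The sum reaches 5.06 in sL2/sL1 and -4.17 in sS1/sL2, and lies at 0.89 in sS1/sL1.

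The members were of very unequal abundance. cas-MIR319-1 held 67.5% of the 3471 counts of the family, cas-MIR319-6 held 12.8%, cas-MIR319-5 held 12.7% and cas-MIR319-9 held 3.11%. cas-MIR319-8, cas-MIR319-3 and cas-MIR319-2 had 48, 42 and 35 counts over all libraries, cas-MIR319-7 had 10, and cas-MIR319-4 had a single count. How reads that match several IDs were counted is not given in the sources used here. Reads of near-identical members may thus have been split between them or placed on 1 of them, which would leave the sum of the 9 members as it is. An ID was tested when it had at least 10 counts over the 12 libraries, which left 222 of the 650 IDs and 8 of the 9 members. Of these 8, cas-MIR319-2, cas-MIR319-3, cas-MIR319-7 and cas-MIR319-8 passed only through their sL2 counts, which favours a difference from the other tissues. The other 4 had at least 10 counts outside sL2.

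cas-MIR319-1, the most abundant member, was counted in all libraries. The sBud libraries had 282, 291 and 339 CPM of it, those of sL1 14.4, 37.6 and 42.6, those of sL2 772, 829 and 975, and those of sS1 48.5, 67.8 and 39.4. The sL2 libraries were the highest and the sBud libraries the next, with no overlap, whereas sL1 and sS1 overlapped. Its log2 fold change was 4.76 for sL2/sL1 (standard error 0.39, adjusted p of edgeR = 2.91e-07) and 1.5 for sL2/sBud (standard error 0.33, adjusted p of edgeR = 0.00211). It was lower in sL1 than in sBud, at -3.26 (standard error 0.37, adjusted p of edgeR = 5.42e-05) and lower in sS1 than in sBud, at -2.54 (standard error 0.35, adjusted p of edgeR = 0.000120). In sS1/sL2 it stood at -4.04 (standard error 0.37, adjusted p of edgeR = 1.33e-06). The stem and the first leaf did not pass the threshold of a DEM, at 0.72 in sS1/sL1 (adjusted p of edgeR = 0.427).

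**Figure D3:**
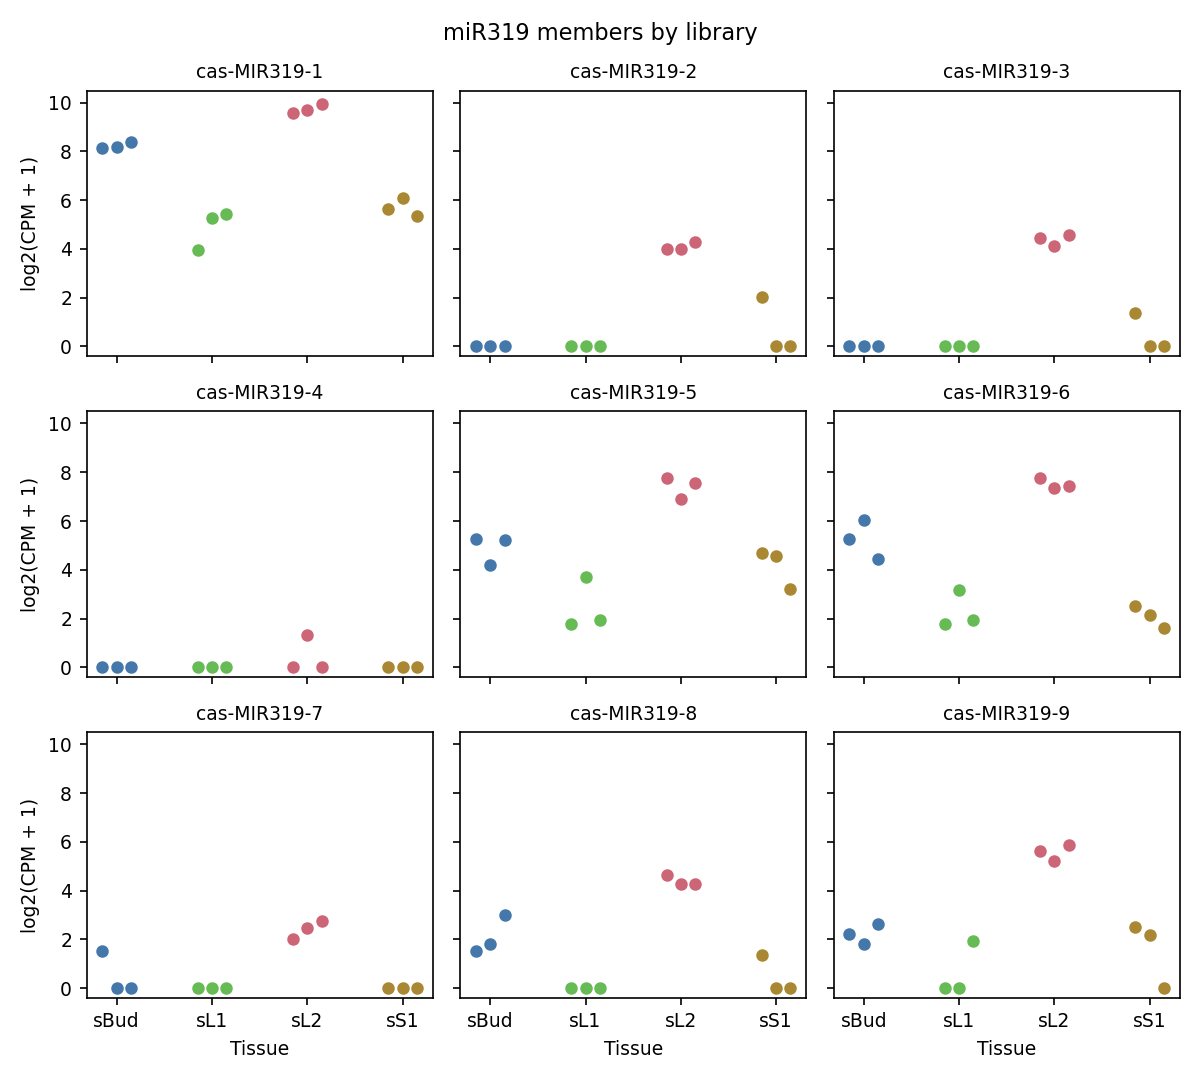
Each panel shows 1 member, with log2(CPM + 1) on the vertical axis and the tissue on the horizontal axis, and points are single libraries. In 8 of the 9 panels all sL2 points lie above all points of the other tissues, and cas-MIR319-4 has a single count in 1 sL2 library. Of these 8 members, 4 passed the filter only through sL2. Among the 222 tested IDs, sL2 lay wholly above sL1 in 27%, above sBud in 26.1% and above sS1 in 25.2%. The share above all other tissues at once was not computed.

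cas-MIR319-5 and cas-MIR319-6 had almost the same number of counts over the series, 440 and 443, but not in the stem. cas-MIR319-5 had 20, 7 and 21 counts in sBud, 1, 6 and 1 in sL1, 142, 78 and 131 in sL2, and 16, 13 and 4 in sS1. cas-MIR319-6 had 20, 26 and 12 counts in sBud, 1, 4 and 1 in sL1, 145, 107 and 121 in sL2, and 3, 2 and 1 in sS1. Both were highest in every sL2 library. In each sS1 library the counts of cas-MIR319-5 exceeded those of cas-MIR319-6, while in the other tissues neither member led throughout.

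cas-MIR319-6 was low in the stem as well as in the first leaf. It averaged 3.41 ± 1.31 CPM in sS1 and 40.7 ± 22.3 CPM in sBud (SD, n = 3 each), and it was a DEM lower in sS1 (adjusted p of edgeR = 0.000452). The ratio of sS1 to sBud was 0.0930 from the 6 counts in sS1 and the 58 in sBud, with an exact 95% counting interval of 0.0328 to 0.215. For sL1/sBud its log2 fold change was -3.06 (standard error 0.57, adjusted p of edgeR = 0.00198), and -3.80 without sL1 replicate 2. It was higher in sL2 than in sBud, at 2.19 (standard error 0.43, adjusted p of edgeR = 0.00103), and higher in sL2 than in sL1, at 5.25 (standard error 0.56, adjusted p of edgeR = 4.40e-06), or 5.92 without sL1 replicate 2. In sS1 it was lower than in sL2 (adjusted p of edgeR = 2.11e-06), at a ratio of 0.0192 with a counting interval of 0.00701 to 0.0423. Between sS1 and sL1 it was no DEM (ratio 0.751, counting interval 0.201 to 2.81).

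cas-MIR319-5 was no DEM between the stem and the bud. It averaged 18.6 ± 9.03 CPM in sS1 and 30.1 ± 11 CPM in sBud (SD, n = 3 each), with overlapping libraries, and the log2 fold change of -0.68 (standard error 0.52) missed the threshold (adjusted p of edgeR = 0.350). It was higher in sL2 than in sBud, at 2.49 (standard error 0.50, adjusted p of edgeR = 0.00107), and lower in sS1 than in sL2, at -3.17 (standard error 0.51, adjusted p of edgeR = 0.000204). For sL1/sBud the value was -2.28 (standard error 0.62, adjusted p of edgeR = 0.0205), and -3.43 without sL1 replicate 2. For sL2/sL1 it was 4.77 (standard error 0.60, adjusted p of edgeR = 1.83e-05), and 5.82 without that library. In sS1/sL1 it was the only member to pass the unadjusted threshold (log2 fold change 1.60, standard error 0.64, unadjusted p of edgeR = 0.0256, adjusted p = 0.236). The value was 2.69 without sL1 replicate 2, and the call was lost without sL1 replicate 1, sL1 replicate 3, sS1 replicate 1 or sS1 replicate 2, at 1.26, 1.31, 1.40 and 1.38.

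Of the counts on both members together, cas-MIR319-5 held 45.3% in sBud (exact 95% interval 35.6% to 55.2%, 106 counts), 57.1% in sL1 (28.9% to 82.3%, 14 counts), 48.5% in sL2 (44.8% to 52.2%, 724 counts) and 84.6% in sS1 (69.5% to 94.1%, 39 counts). In single sS1 libraries the share ran from 80.0% to 86.7%, and in single sBud libraries from 21.2% to 63.6%. This pair was singled out after its values were seen, so the shares are given as a description without a test.

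cas-MIR319-9, one of the members chosen by the study, was counted mainly in the second leaf. It had 2, 1 and 3 counts in sBud, 0, 0 and 1 in sL1, 32, 24 and 40 in sL2, and 3, 2 and 0 in sS1. All sL2 libraries were far above the rest, where no library had more than 3 counts. It was higher in sL2 than in sBud by 12-fold in the pooled counts (exact 95% counting interval 5.33 to 33.6, adjusted p of edgeR = 0.000967). The ratio of sL2 to sL1, whose libraries together held 1 count, was 60.3 (counting interval 10.6 to 2405, adjusted p of edgeR = 0.000168). This count came from sL1 replicate 3, without which sL1 is at 0 and no ratio can be given. The ratio of sS1 to sL2 was 0.0623 (counting interval 0.0198 to 0.150, adjusted p of edgeR = 0.000503). Its other 3 comparisons were no DEMs and rested on at most 6 counts per tissue.

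cas-MIR319-2, the other chosen member, was at 0 counts in every sBud and sL1 library. It had 10, 10 and 13 counts in sL2, or 16.2 ± 1.94 CPM (SD, n = 3), and 2, 0 and 0 in sS1. It was at least 2.68-fold higher in sL2 than in sBud and at least 2.25-fold higher in sL2 than in sL1, with the limit of 3 counts set for each library at 0. The ratio of sS1 to sL2 was 0.0725, with an exact 95% counting interval of 0.00843 to 0.283, and both sS1 counts came from replicate 1, so that the stem is at 0 without it. These values are given without p, since the sL2 counts alone let this member into the test.

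Within each library, the log2 ratio of cas-MIR319-2 to cas-MIR319-9, with 0.5 added to each count, averaged -1.48 ± 0.22 in sL2 (SD, n = 3), the one tissue in which both were well counted. In the other tissues it followed the added 0.5 more than any reads, so the tissues could not be compared in this ratio.

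The remaining members were minor and had their counts almost wholly in the second leaf. cas-MIR319-3 had 14, 11 and 16 counts in sL2, 0 in every sBud and sL1 library, and 1, 0 and 0 in sS1. It was at least 3.33-fold higher in sL2 than in sBud and at least 2.79-fold higher than in sL1. cas-MIR319-8 had 1, 1 and 4 counts in sBud, 0 in every sL1 library, 16, 12 and 13 in sL2, and 1, 0 and 0 in sS1. It was at least 2.80-fold higher in sL2 than in sL1. In sL2/sBud it had a log2 fold change of 2.32 (standard error 0.73), and of 3.04 without sBud replicate 3. Both members passed the filter through sL2, so no p is given for these values. In sL1/sBud it was a DEM at lower level in sL1 (unadjusted p of edgeR = 0.0143, adjusted p = 0.0796), but its mean of 3.74 CPM in sBud lay under the limit of 3 counts, so no fold change is given.

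The ratio of sS1 to sL2 was 0.0292 for cas-MIR319-3 and for cas-MIR319-8 alike, each from 1 and 41 counts, with a counting interval of 0.000721 to 0.172. In both cases the stem count came from sS1 replicate 1, without which the stem is at 0. cas-MIR319-7 had 1, 0 and 0 counts in sBud, 2, 3 and 4 in sL2, and none in sL1 or sS1. At an average of 3 counts in its highest tissue, no fold change is given. cas-MIR319-4 had 1 count, in sL2 replicate 2.

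The filter favoured high sL2 values in the 4 members that entered the test through sL2 alone. The counts of members are therefore a description and no support for the difference. Counted over the members, 8 of 9 were DEMs higher in sL2 than in sL1, where 21.2% of the 222 tested IDs were DEMs higher in sL2. In sL2/sBud, 7 of 9 were higher, where 23.4% of all tested IDs were. In sS1/sL2, 8 of 9 were lower, where 21.2% of all were. In sL1/sBud, 4 of 9 were lower, against 9.91% of all (9.46% were higher), and in sS1/sBud 2 of 9 were lower, against 16.2%. In sS1/sL1 only cas-MIR319-5 was higher, against 4.50% of all, and with adjusted p no ID of the 222 was a DEM in this comparison (0%). With adjusted p, 7 members were higher in sL2/sL1 (19.4% of all), 7 in sL2/sBud (20.7%), and 8 were lower in sS1/sL2 (18.0%), 3 in sL1/sBud (7.66%) and 2 in sS1/sBud (11.7%). The libraries of a member did not overlap, with sL2 above, in 8 of 9 members against sL1 (27% of all tested IDs) and against sBud (26.1%), and those of sS1 lay below sL2 in 8 of 9 (25.2%). Those of sL1 lay below sBud in 4 of 9 (13.1%), and those of sS1 below sBud in 3 of 9 (21.6%). The comparisons share their libraries with one another. The 4 members with at least 10 counts outside sL2, cas-MIR319-1, cas-MIR319-5, cas-MIR319-6 and cas-MIR319-9, were DEMs in sL2/sL1, sL2/sBud and sS1/sL2.

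cas-MIR319-1 was the main member in every tissue. It held 79.3 ± 3.37% of the miR319 counts of an sBud library (SD, n = 3), 74.6 ± 8.91% of an sL1 library, 64.9 ± 5.52% of an sL2 library and 67.7 ± 12.5% of an sS1 library. Over the 4 tissues together no difference was detected (p = 0.214, two-sided exact permutation test), and the 8 counts of sL1 replicate 1 alone allow a share of 34.9% to 96.8%. In the better counted tissues, all sBud libraries (77.0% to 83.1%) lay above all sL2 libraries (58.6% to 69.1%). This pair was not tested on its own. Over the 12 libraries, log2(CPM + 1) of the 4 members with at least 10 counts outside sL2 had Pearson correlations of 0.83 to 0.95 with each other, which is a description of libraries that fall into tissues.

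**Figure D4:**
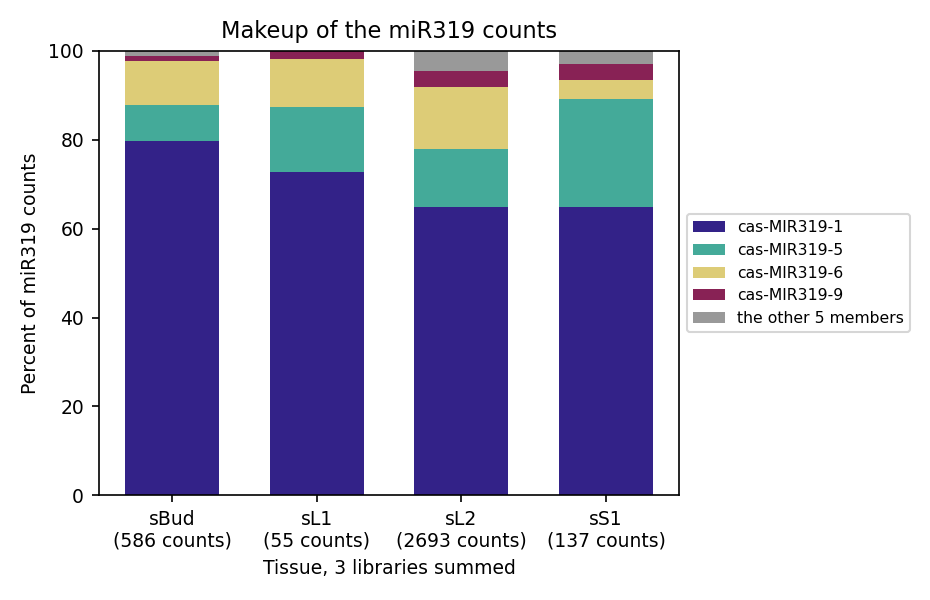
Bars give the percent of the miR319 counts held by each member, with the 3 libraries of a tissue summed and the number of counts under each bar. cas-MIR319-1 holds most of each bar, and in sS1 the part of cas-MIR319-5 is 24.1% and that of cas-MIR319-6 is 4.38%.

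The IDs whose pattern was most like that of the miR319 sum came largely from the miR159 family. Among the 128 IDs outside the family with at least 10 counts per library on average, cas-MIR159-2 had the highest Pearson correlation of log2(CPM + 1) with the sum over the 12 libraries (r = 0.98). It was followed by cas-MIR159-14 (0.97), cas-MIR159-15 (0.96), cas-MIR172-12 (0.92) and cas-MIR164-5 (0.86). The same 5 IDs came first for cas-MIR319-1. These correlations span libraries of 4 tissues that share their depth and normalization, and the median over the 128 IDs was -0.04. cas-MIR159-2 averaged 30502 CPM in the bud, 3515 in the first leaf, 179078 in the second leaf and 4378 in the stem, and thus had the same order of tissues as the miR319 sum.

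**Figure D5:**
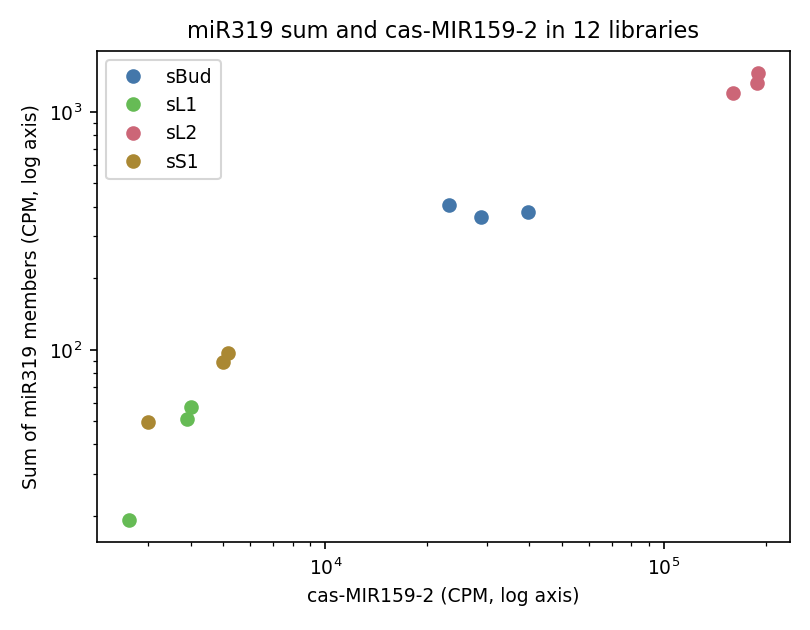
Each point is a library, with cas-MIR159-2 on the horizontal axis and the sum of the miR319 members on the vertical axis, both in CPM on log axes, and colours mark tissues. Both rise together from the sL1 libraries to the sL2 libraries, with sBud between them.

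Set beside cas-MIR159-2 in the same library, the counts of the miR319 sum came to 0.958% to 1.76% of its counts in the bud, 0.733% to 1.43% in the first leaf, 0.702% to 0.767% in the second leaf and 1.67% to 1.89% in the stem. The range over the 12 libraries was thus 0.702% to 1.89%, while the sum itself ran from 19.2 to 1455 CPM. cas-MIR159-2 was picked for its correlation with the sum in these same libraries. A narrow range therefore follows in part from that choice and is a description only. All sS1 libraries and all sBud libraries lay above all sL2 libraries in this percentage, with no overlap. The authors allowed up to 2 mismatches in the alignment. The part that reads of cas-MIR159-2 or its relatives may have in the miR319 counts was not tested, and no sequences were at hand with which to do so. The sum of the miR159 family had smaller log2 fold changes than the miR319 sum, of the same sign in all comparisons but sS1/sL1, and none of them reached a DEM. They were -0.45 in sL1/sBud (adjusted p of edgeR = 0.0124), 0.08 in sL2/sBud (0.609), -0.73 in sS1/sBud (0.000258), 0.53 in sL2/sL1 (0.00348), -0.28 in sS1/sL1 (0.201) and -0.81 in sS1/sL2 (0.000130).

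Other miRNA families with roles in leaf growth were set beside miR319 by counts of their members. miR159 had 31 of 47 listed IDs tested, of which 15 were higher and 2 lower in sL2 than in sL1. In sS1/sL2, 1 of these 31 was higher and 17 were lower, where 20.3% of all tested IDs were higher and 21.2% lower. The miR396 family acts on growth-regulating factors and is raised by a TCP factor in Arabidopsis. It had 15 of 23 IDs tested, of which 5 were higher and 0 lower in sL2/sL1, where 21.2% of all tested IDs were higher and 19.4% lower. In sL1/sBud 10 of the 15 were higher and 1 was lower, where 9.46% of all were higher and 9.91% lower. The miR164 family acts on NAC genes of leaf margins, and its precursor is a known TCP target in Arabidopsis. It had 6 of 15 IDs tested, with 3 higher and 0 lower in sL2/sL1, against the same 21.2% and 19.4% of all.

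Families with roles in phase change, auxin response and leaf polarity were counted in the same way. In sL2/sL1, miR166, which limits class III HD-ZIP factors, had 2 higher and 8 lower IDs of 32 tested. miR156, which acts on SPL genes, had 1 higher and 0 lower of 9 tested. miR160, which acts on auxin response factors, had 0 of 5 in either direction, and miR390, the trigger of TAS3 small RNAs, had 1 higher and 0 lower of 4. Over all 222 IDs, 21.2% were higher and 19.4% lower in this comparison. The median log2 fold change of these families in sL2/sL1 lay between -0.53 for miR166 and 1.61 for miR159. The values of cas-MIR319-1, cas-MIR319-5 and cas-MIR319-6 in this comparison were 4.76, 4.77 and 5.25. These are values of single members and are not comparable with family medians. Single miR159 IDs also reached this size, with 5.67 for cas-MIR159-2 and 5.67 for cas-MIR159-14, while cas-MIR159-15 had 3.81. Others went higher, with 7.48 for cas-MIR159-38, 7.35 for cas-MIR159-25 and 7.07 for cas-MIR159-41 (standard errors 1.29, 1.38 and 1.25). Outside miR159, cas-MIR172-12 had 5.07, so this size was not particular to miR319. Of the 31 miR159 IDs tested, 15 were higher and 2 lower.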

How the data were processed

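Small RNAs of sBud, sL1, sL2 and sS1 were sequenced in 3 libraries each, and tissue and replicate were taken from the deposited titles. The authors removed adaptors, reads shorter than 20 nt and reads of rRNA, tRNA and the like, matched what was left against miRBase, allowing 2 mismatches, and deposited raw counts per conserved miRNA ID. Each library listed the same 650 IDs. The deposited label names a kit for mRNA libraries, whereas the study describes libraries of small RNAs. Replicate libraries differed by more than sampling noise (chi-square per degree of freedom 16.1 to 124). The p-values measure the spread between the 3 libraries of a tissue.

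The counts were tested with edgeR 4.0.16 (glmQLFit, glmQLFTest, TMM) in R 4.3.3, with all 12 libraries in a single fit, for 6 comparisons of tissues, and again after summing counts per family. The 222 IDs with at least 10 counts in total were tested. The sums were scaled with TMM factors of their own, whereas CPM use those of the single IDs. A DEM changed more than 2-fold in either direction with p below 0.05 before adjustment, and adjusted p are Benjamini-Hochberg values over all features tested. Single values per library were compared with exact permutation tests (Python 3.11.15). The procedure was first tested on simulated data. The text names all 9 members, the 5 IDs most correlated with the miR319 sum and with its main member, and 7 other families by counts. These members, lists and tests were chosen with earlier results of these data known. The alternatives tried were limma-voom (limma 3.58.1) and DESeq2 1.42.0, no filter or filterByExpr, scaling by RLE or by totals only, a fit lacking the 5 most abundant features, adjusted p, separate fits for each pair of tissues, a block for the replicate number, and each library left out in turn. The lower bounds and the shares of cas-MIR319-5 with a library left out were added after seeing the data.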

Additional observations from a re-analysis of the deposited data

How the results depend on the processing

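The miR319 sum kept its direction and its side of the threshold in 5 of the 6 comparisons under every alternative run. Its log2 fold change ranged from 4.73 to 5.46 in sL2/sL1, from 1.70 to 2.33 in sL2/sBud, from -3.55 to -2.66 in sL1/sBud, from -2.57 to -2.0 in sS1/sBud and from -4.66 to -3.91 in sS1/sL2. In sS1/sL1 it ran from 0.34 to 1.28 with 1 library left out. The number of members called in sS1/sL1, which was 1, ran from 0 to 1 with 1 library left out, and was 0 with adjusted p and 0 with the 2 tissues alone. The exact permutation p of the ratio of cas-MIR319-2 to cas-MIR319-9, which outside sL2 follows the number added to each count and says nothing of the tissues, was 0.146 with 0.5 added, 0.00844 with 3 added to each count and ran from 0.0318 to 0.303 with 1 library left out. That of the family share ran from 6.49e-05, the smallest it can give, to 0.000325. With library size alone, the log2 fold changes of all tested IDs moved by a median of -0.26 in sS1/sL2, -0.18 in sS1/sBud and 0.17 in sL2/sL1. The DEMs of all IDs then divided into 33 higher and 52 lower in sS1/sL2, 23 and 47 in sS1/sBud and 9 and 10 in sS1/sL1, beside 45 and 47, 29 and 36, and 10 and 6 with TMM. Without the 5 most abundant IDs, sS1/sL1 had 9 and 9. No sign of pairing by replicate number was seen in the deviations of libraries from their tissue means. These correlated over 0.1 in 1 of 18 same-numbered pairs and in 5 of 36 other pairs. Of the 12 libraries, 2 correlated best with a library of their own number. With 3 libraries per tissue, this check cannot show whether same-numbered samples shared plants or a batch. With the replicate block the sum had log2 fold changes of 5.12 in sL2/sL1 and 0.91 in sS1/sL1, and 82 IDs were DEMs in sL2/sL1, beside 90 without the block. The block changed no call of the sum, and of the members' calls only that of cas-MIR319-7 in sL2/sL1 was lost. Depth limits the minor members, which are at or near 0 counts outside sL2.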
